A study of Mus musculus with 2 samples.

Results

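The genes described here encode the natriuretic peptide receptors (Npr1, Npr2 and Npr3), the soluble guanylate cyclase subunits (Gucy1a1 and Gucy1b1), the cGMP-dependent protein kinase Prkg1 and the phosphodiesterases Pde5a, Pde1a, Pde1c and Pde2a. Their chromatin accessibility was read from an ATAC-seq peak table, taking each peak whose gene symbol in the table was that of a member. The table listed 63316 peaks, of which 43864 carried the symbol of 1 of 16934 genes, and 61 of these lay in 8 of the 10 members. Prkg1 held 29 of them, Pde1a 15, Pde1c 5, Pde5a 4, Gucy1a1 3, Gucy1b1 2, Npr3 2 and Pde2a 1. Npr1 and Npr2 had no peak with their symbol.

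ATAC-seq cuts open DNA with the Tn5 transposase, so the density of reads over a region follows how accessible it is. Both libraries came from primary cardiac fibroblasts of the mouse heart treated with TGF-β, the cytokine that turns fibroblasts into contractile, matrix-secreting myofibroblasts. The NC library was the control (transfected with scrambled siRNA) and the SiPiezo2 library received siRNA against Piezo2, a mechanosensitive ion channel. Each condition had 1 library, so no difference has a replicate check and no test of the conditions was made. The text deposited with the series names a Cre-induced knockout of Tet3 rather than the siRNA of the sample labels, and the study's methods describe minced tissue and a different ATAC-seq kit. The values below rest on the labels, and these differences were not settled.

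Atrial and B-type natriuretic peptides bind the receptor encoded by Npr1, and C-type natriuretic peptide binds that of Npr2. Both receptors are guanylate cyclases that make cGMP inside the cell, whereas the product of Npr3, the clearance receptor, has no cyclase domain and removes the peptides. Nitric oxide drives a second source of cGMP, the soluble guanylate cyclase. The kinase encoded by Prkg1 passes the signal on, phosphodiesterases break cGMP down, and this pathway is known in the heart as a brake on fibroblast activation.

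The windows around the peak summits, each 2000 bp wide, held 4615335 reads in the NC library and 2754046 in the SiPiezo2 library. A median member peak had 50 and 30 reads. Reads could be recovered from the deposited densities, and each log2 ratio below, log2((SiPiezo2 + 1)/(NC + 1)), is given with a 95% exact binomial (Clopper-Pearson) interval that covers counting error only. At peaks called in both libraries the ratios had 2.04 times the variance of counting error, and intervals called widened below allow for it. This factor comes from the spread across peaks of 1 pair of libraries, so it holds no variation between replicates. The 7 fibroblast markers examined all had a peak no farther than 1 kb from an annotated start of transcription (TSS), and their summed density was 986 in NC and 905 in SiPiezo2 (log2 ratio -0.12). Ddr2 made up 464 of the 986 with a ratio of 0.00, and 6 of the 7 were below 0, among them Col1a1 (-0.44, -0.73 to -0.16), Col1a2 (-0.50, -0.79 to -0.21) and Postn (-0.49, -1.13 to 0.09). Of 6 smooth muscle and pericyte markers, 4 had such a peak, and the list summed to 636 and 430 (-0.56), with Acta2 (-1.91) and Rgs5 (-1.16) the lowest. Without these genes, left out after their values were seen, the list summed to 344 and 331 (-0.06, -0.22 to 0.10). Such a peak was found for 1 of 5 endothelial markers, 1 of 5 cardiomyocyte markers and 0 of 5 blood cell markers. Counting any peak, endothelial markers had one in 4 of 5 genes and 359 against 382 (0.09), with Cdh5 at 0.70 (0.34 to 1.09), cardiomyocyte markers in 3 of 5 and 146 against 152 (0.06), and blood cell markers in 2 of 5 and 133 against 112 (-0.25). Myh6, Nppa, Tie1, Cd68, Adgre1 and Lyz2 had no peak. The study itself measured Acta2, Postn and Col1a1 as markers of myofibroblasts, so in these cells Acta2 does not mark other cell types alone. The part of other cell types in the results below was not tested, and in bulk chromatin fewer cells with an open region cannot be told apart from less opening in each cell. Piezo2 itself had 14 peaks, which summed to 334 in NC and 242 in SiPiezo2 (-0.46, -0.64 to -0.29), which does not check the knockdown, since siRNA acts on the transcript.

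The promoters shown here are those of the natriuretic receptors, which differ in whether a peak was listed, and those of Gucy1b1, Prkg1 and Pde2a, where a peak lay over part of the window. Each is the stretch of 250 bases before the RefSeq start site in GRCm38.p6, written from 5′ to 3′ on the strand of the gene, and none of these bases lies in an exon that GENCODE annotates for its gene. Capitals mark matches, on either strand, to the SP1 motif GGGCGG, the SMAD motif GTCTG, the TEAD motif GGAATG, the AP-1 motifs TGAGTCA and TGACTCA, or the CArG box of SRF.
Npr1, chr3:90465867-90466116, minus strand: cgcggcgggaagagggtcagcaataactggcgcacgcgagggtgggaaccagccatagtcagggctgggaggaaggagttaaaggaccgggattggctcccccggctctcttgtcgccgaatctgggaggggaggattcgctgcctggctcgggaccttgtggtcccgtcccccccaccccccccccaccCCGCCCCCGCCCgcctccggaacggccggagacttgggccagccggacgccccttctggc
Npr2, chr4:43631685-43631934, plus strand: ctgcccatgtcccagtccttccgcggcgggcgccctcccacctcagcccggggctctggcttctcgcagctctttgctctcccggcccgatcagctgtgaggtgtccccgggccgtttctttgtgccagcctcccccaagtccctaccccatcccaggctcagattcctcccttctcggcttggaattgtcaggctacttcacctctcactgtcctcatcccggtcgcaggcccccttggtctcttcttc
Npr3, chr15:11907372-11907621, minus strand: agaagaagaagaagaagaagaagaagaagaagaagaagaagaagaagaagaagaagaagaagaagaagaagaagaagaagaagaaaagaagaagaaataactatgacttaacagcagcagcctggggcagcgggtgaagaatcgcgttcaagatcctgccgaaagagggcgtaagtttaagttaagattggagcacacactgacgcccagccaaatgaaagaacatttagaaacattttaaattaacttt
Gucy1b1, chr3:82074712-82074961, minus strand: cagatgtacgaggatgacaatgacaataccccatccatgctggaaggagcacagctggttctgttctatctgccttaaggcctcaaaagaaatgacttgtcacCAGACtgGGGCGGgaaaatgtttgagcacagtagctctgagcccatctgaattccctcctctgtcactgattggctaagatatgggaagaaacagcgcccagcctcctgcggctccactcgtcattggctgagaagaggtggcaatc
Prkg1, chr19:31765034-31765283, minus strand: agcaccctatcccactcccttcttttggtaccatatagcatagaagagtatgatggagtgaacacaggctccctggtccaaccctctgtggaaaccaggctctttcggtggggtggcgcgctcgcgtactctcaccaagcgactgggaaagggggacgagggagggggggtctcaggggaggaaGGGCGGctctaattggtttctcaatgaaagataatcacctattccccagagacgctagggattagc
Pde2a, chr7:101450270-101450519, plus strand: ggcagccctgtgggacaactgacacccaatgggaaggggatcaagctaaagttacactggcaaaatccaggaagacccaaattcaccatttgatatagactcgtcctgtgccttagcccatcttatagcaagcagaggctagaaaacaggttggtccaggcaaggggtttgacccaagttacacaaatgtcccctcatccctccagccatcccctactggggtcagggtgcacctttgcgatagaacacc

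The promoters of Npr1 and Npr2 were GC-rich, at 70.4% and 64.4% of the 250 bases, while that of Npr3 had 38.8% and opened with a long GAA repeat. Npr1 carried 2 SP1 matches, and Gucy1b1 and Prkg1 1 each. Over the 21 RefSeq promoter windows of the 10 members, each 300 bases long with 50 bases after the start, 7 held an SP1 match, against 35.7% of all 32851 mouse promoter windows. The SMAD letters were in 11 of the 21 and 49.6% of all windows, TEAD in 2 and 14.7%, AP-1 in 1 and 5.20%, and the CArG box in 0 and 1.63%. These are matches of letters and describe no binding. The peak table follows a newer assembly, GRCm39, so peaks were set against these windows only by distance from the annotated start. Measured so, the peak at Gucy1b1 covered 264 of the 300 bases of its window, that at Pde2a 184, that at Prkg1 118 and that at Npr3 52.

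Across the 8 genes with peaks, 6 had a lower summed density in SiPiezo2 than in NC and 2, Gucy1a1 and Pde2a, a higher one, with 5 lower under a trimmed mean scaling and 4 with reads at the same total. The median log2 ratio of the 8 genes was -0.26, beside a median of -0.09 over all 16934 genes (quartiles -0.29 and 0.10). Summed over all 61 peaks, density was 1455 in NC and 1235 in SiPiezo2, a log2 ratio of -0.24 (-0.32 to -0.16). The interval was -0.35 to -0.12 when widened for the extra variance seen across peaks. Some windows of neighbouring peaks share reads, and the 54 member peaks with separate windows gave -0.19 (-0.28 to -0.11). Without Prkg1 the ratio was -0.16 (-0.27 to -0.05). No member passed a 1.5-fold difference in either direction (a ratio below 0.66 or above 1.5), which 6.21% of all genes did as lower and 1.54% as higher. The counting interval lay below 0 for 3 members, Npr3, Prkg1 and Pde5a, and above 0 for 0 members, and over all genes it lay below 0 in 15.8% and above 0 in 4.68%. That of Pde5a counts reads of overlapping windows more than once and is too narrow, and it held 0 over separate windows. Only the interval of Prkg1 still excluded 0 when widened. Over all 16934 genes the widened interval lay below 0 in 1191 and above 0 in 239.

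**Figure D1:**
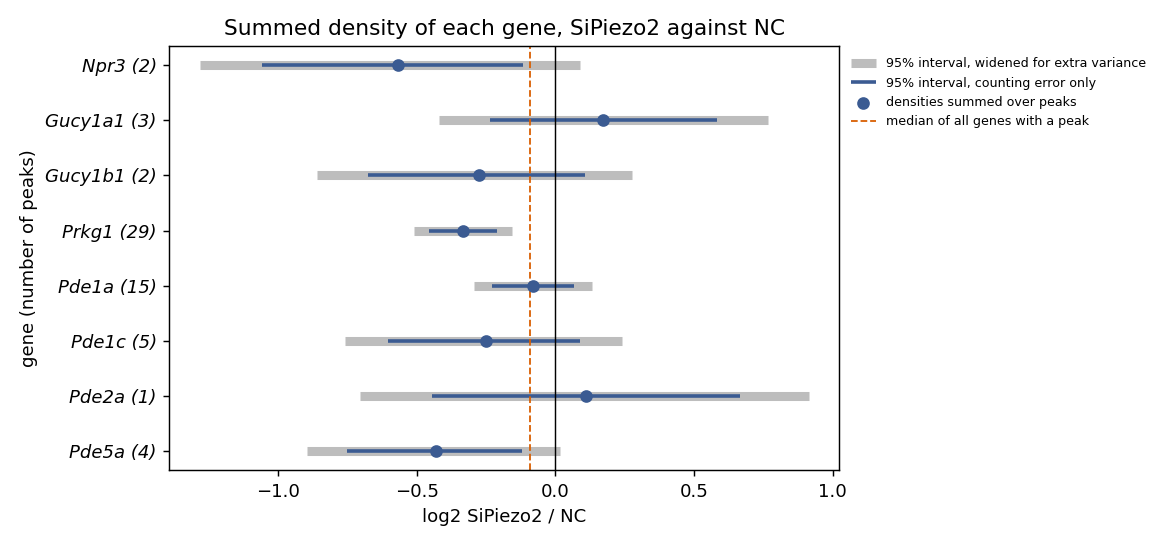
Log2 ratio of SiPiezo2 to NC for the density summed over the peaks of each gene, with the number of peaks in parentheses. Thin bars are 95% intervals for counting error (too narrow for Pde5a, Pde1a and Prkg1, where some peaks share reads). Thick bars are the same intervals widened for extra variance, and the dashed line is the median of all genes (-0.09). Npr3 is lowest at -0.57 and Gucy1a1 highest at 0.17.

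Of the 61 member peaks, 13 were lower past 1.5-fold, where 13.5% of all peaks were, and 3 were higher, where 3.21% were. With a trimmed mean scaling, the same counts were 8 lower and 4 higher, and the shares of all peaks 8.23% and 6.37%. Densities of member peaks ranged from 10.7 to 52.7 in NC (median 21.9) and from 7.99 to 57.4 in SiPiezo2 (median 18.1), so the ranges of the libraries overlapped. The median over all peaks was 24.5 in NC and 22.1 in SiPiezo2. The ratio was below 0 at 44 of 61 member peaks, or 72.1%, beside 63.7% of all peaks. Without Prkg1 it was below 0 at 20 of 32, or 62.5%. The counting interval lay below 0 at 11 member peaks and above 0 at 1, beside 12.6% and 4.03% of all peaks. Widened, it lay below 0 at 2 member peaks and above 0 at 1, beside 2630 and 718 of all 63316 peaks.

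**Figure D2:**
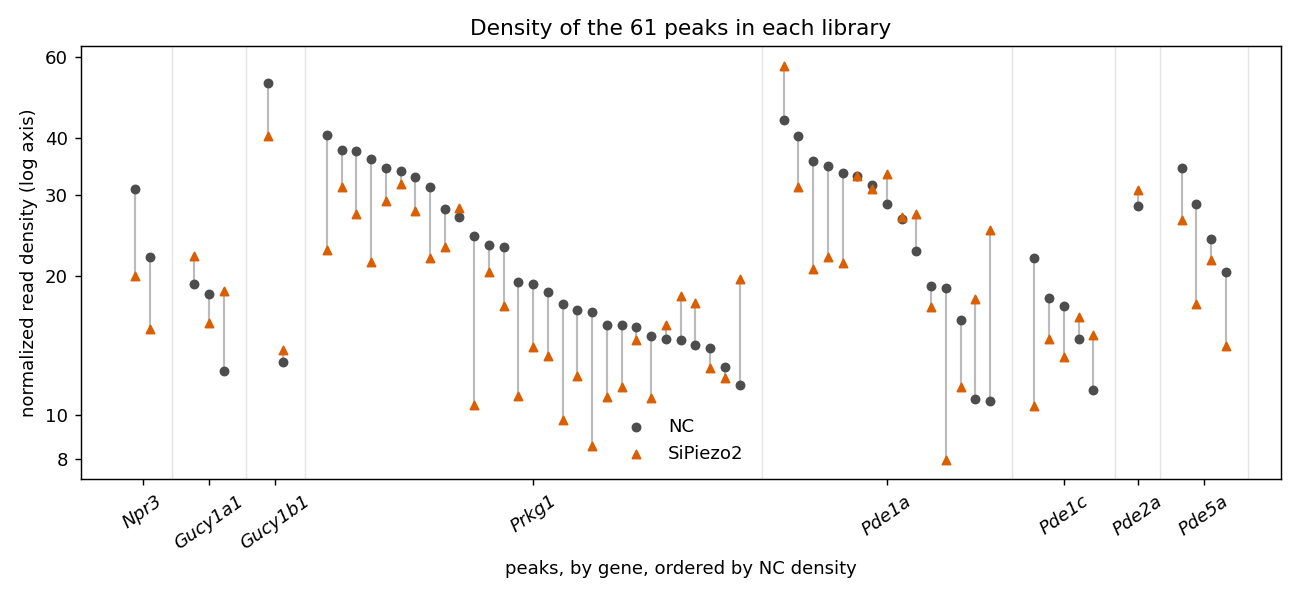
Normalized read density (log axis) of each of the 61 peaks in the NC library (circles) and the SiPiezo2 library (triangles), joined by a line and ordered within each gene by NC density. Most triangles of Prkg1 lie under their circles (24 of 29), while those of Pde1a lie on both sides (9 below, 6 above).

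Ratios moved with the calling of peaks. Of the member peaks, 17 were called in both libraries, 41 in NC only and 3 in SiPiezo2 only. These are 27.9%, 67.2% and 4.92% of them, beside 33.8%, 64.0% and 2.16% of all peaks. Among the 17, 12 lay below 0 with a median of -0.23. The 21398 peaks of the whole table called in both had a median of 0.00 and 49.7% below 0. The normalization line ran through the peaks shared by both libraries, so a middle near 0 is set in advance for that class. The 17 lay in 3 genes, with 9 in Prkg1, 7 in Pde1a and 1 in Gucy1b1, and without Prkg1 5 of 8 lay below 0 with a median of -0.18. All peaks of Npr3, Pde5a, Pde1c, Gucy1a1 and Pde2a were called in NC only, the library with more reads in the windows. The part of calling in their ratios was not tested. The 41 peaks called in NC only had a median of -0.36, beside -0.23 for all such peaks, and the 22 of them outside Prkg1 had -0.24. All 3 peaks called in SiPiezo2 only were higher past 1.5-fold, as were 49.8% of all such peaks.

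Of the natriuretic receptors, Npr3 alone had peaks with its symbol, and both were lower in SiPiezo2. Npr3 lies on chr15:11839982-11907373 (minus strand). Its peak at the start of the gene, chr15:11907214-11907459, is in the 5′ untranslated region with its centre 37 bp inside the start. Density there was 30.9 in NC and 20.02 in SiPiezo2, from 74 and 32 reads (log2 ratio -0.60, -1.27 to -0.01). The other peak, in intron 3, had 22.0 and 15.4 (-0.49, -1.27 to 0.20). Summed over the peaks with its symbol, Npr3 had 52.9 in NC and 35.4 in SiPiezo2. This was the lowest ratio of the members by that assignment at -0.57 (-1.06 to -0.12), or 0.675 of NC, just short of the 1.5-fold threshold. Widened for extra variance, this interval reached from -1.28 to 0.09.

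A peak of another symbol, Gm5144, lay inside Npr3 close to its start, at chr15:11906301-11906557, and its reads overlapped those of the Npr3 start peak. It too was lower, with 34.4 in NC and 20.8 in SiPiezo2 (-0.70, -1.36 to -0.13). Both intergenic peaks that had Npr3 as their nearest start gave intervals around 0. One, 6.94 kb away, had 15.4 in NC and 16.3 in SiPiezo2 (0.08, -0.70 to 0.85). The other, 69.5 kb away beyond the end of the gene, had 30.8 and 30.3 (-0.02, -0.58 to 0.52). With intergenic peaks of the nearest start added to each member, the ratio of Npr3 was -0.27 and no longer the lowest.

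The receptors with a cyclase domain gave no values of their own. Npr1 lies between Ints3 and Ilf2 on chromosome 3, and the table had 1 peak between the peaks of these neighbours, chr3:90353634-90354073, which the annotation left intergenic and placed nearest to the start of another gene. It was called in both libraries, with 37.6 in NC and 54.3 in SiPiezo2 (0.52, 0.09 to 0.97). Npr2 lies between Rgp1 and Hint2 on chromosome 4, with 0 peaks between those of these neighbours. A peak table lists only regions that passed the caller, so an unlisted promoter has no value here rather than a density of 0.

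The subunits of soluble guanylate cyclase, the nitric oxide receptor, are neighbours on chromosome 3 and differed in sign. Gucy1b1 (chr3:81939313-81981996, minus strand), the β subunit, had the strongest start-site peak of any member, chr3:81981806-81982232, called in both libraries. Its density was 52.7 in NC and 40.3 in SiPiezo2, from 134 and 62 reads (-0.38, -0.85 to 0.06), and 89.2% of all peaks had a lower mean density. The intron 4 peak of Gucy1b1 had 13.0 and 13.8 (0.08, -0.77 to 0.92). Both intervals held 0, as did that of the summed density, 65.8 in NC and 54.1 in SiPiezo2 (-0.28, -0.68 to 0.11).

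Gucy1a1 (chr3:81999734-82053096, minus strand), the α subunit, was the member with the highest ratio. Its start-site peak, chr3:82052981-82053257, had 19.3 in NC and 22.1 in SiPiezo2 (0.19, -0.48 to 0.86), and was also its strongest. In intron 1 a peak had 12.5 and 18.6 (0.54, -0.21 to 1.37), and in intron 3 another had 18.3 and 15.8 (-0.20, -0.97 to 0.53). The sum was 50.1 in NC and 56.5 in SiPiezo2 (0.17, -0.23 to 0.58), so for both subunits the counting interval of the sum held 0.

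Prkg1, a main effector of cGMP in smooth muscle and fibroblasts, spans 1201 kb on chr19:30541889-31742433 (minus strand) and had a lower summed density in SiPiezo2. Its 29 peaks had densities from 11.6 to 40.5 in NC (median 19.2) and from 8.54 to 31.7 in SiPiezo2 (median 17.3). Of these, 24 were lower in SiPiezo2 and 5 higher. The summed density was 661 in NC and 525 in SiPiezo2, from 1555 and 848 reads (-0.33, -0.45 to -0.21; widened, -0.51 to -0.16). Genes with at least 20 peaks numbered 91, with a median ratio of -0.19 and quartiles of -0.29 and -0.11, and 11 of them were lower than Prkg1.

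The lower values were concentrated in intron 5. All 8 of its peaks were lower in SiPiezo2, and 6 were lower past 1.5-fold, the full number of such peaks in Prkg1. Of these 6, all but chr19:30820430-30820961 were called in NC only, so they were listed through the library where they were higher. The lowest, chr19:30768642-30768957, had 24.4 in NC and 10.5 in SiPiezo2, from 56 and 17 reads (-1.14, -2.09 to -0.41). At chr19:30802378-30802673 density was 16.7 and 8.54 (-0.89, -1.97 to -0.05). The strongest Prkg1 peak by NC density, chr19:30820430-30820961, was called in both libraries and had 40.5 and 22.8 (-0.80, -1.42 to -0.26). These 3 peaks, and the one at chr19:30784758-30785245 with 35.9 in NC and 21.4 in SiPiezo2 (-0.72, -1.36 to -0.16), had counting intervals below 0. Widened, only those of chr19:30768642-30768957 and chr19:30820430-30820961 still did. The peak at chr19:30867892-30868114 had 17.4 and 9.75 (-0.78, -1.78 to 0.03), and that at chr19:30766121-30766387 had 19.4 and 11.01 (-0.77, -1.70 to 0.00), so both intervals reached 0.

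Summed over intron 5, density was 206 in NC and 124 in SiPiezo2 (-0.73, -0.98 to -0.49; widened, -1.09 to -0.38). Most peaks in this sum were called in NC only, and the part of calling was not tested. The windows of chr19:30820430-30820961 and chr19:30822347-30822714 share reads, so the interval is too narrow. This intron was singled out after its values were seen, and the 21 other peaks of Prkg1 together had 455 and 401 (-0.18, -0.33 to -0.04; widened, -0.39 to 0.02). The median of genes with many peaks, given above, was -0.19. In the other introns with several peaks the summed ratio was -0.21 (-0.49 to 0.06) over 5 peaks of intron 1, 0.16 (-0.25 to 0.57) over 3 of intron 2, -0.26 (-0.54 to 0.01) over 7 of intron 3 and -0.12 (-0.49 to 0.23) over 3 of intron 4. Every one of these 4 intervals held 0.

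Of the other Prkg1 peaks, the one with its centre 233 bp before the start, chr19:31742566-31742766, had 28.0 in NC and 23.1 in SiPiezo2 (-0.27, -0.90 to 0.32). The strongest peak by the mean of both libraries, in intron 10 at chr19:30601002-30601457, had 37.7 and 31.2 (-0.26, -0.80 to 0.24). A single Prkg1 peak was higher past 1.5-fold, chr19:31410973-31411218 in intron 2, with 11.6 in NC and 19.8 in SiPiezo2 (0.72, -0.02 to 1.57), and it was called in SiPiezo2 only. Cstf2t, a gene that lies inside Prkg1, had its own start-site peak with 58.0 and 61.5 (0.08, -0.30 to 0.47).

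**Figure D3:**
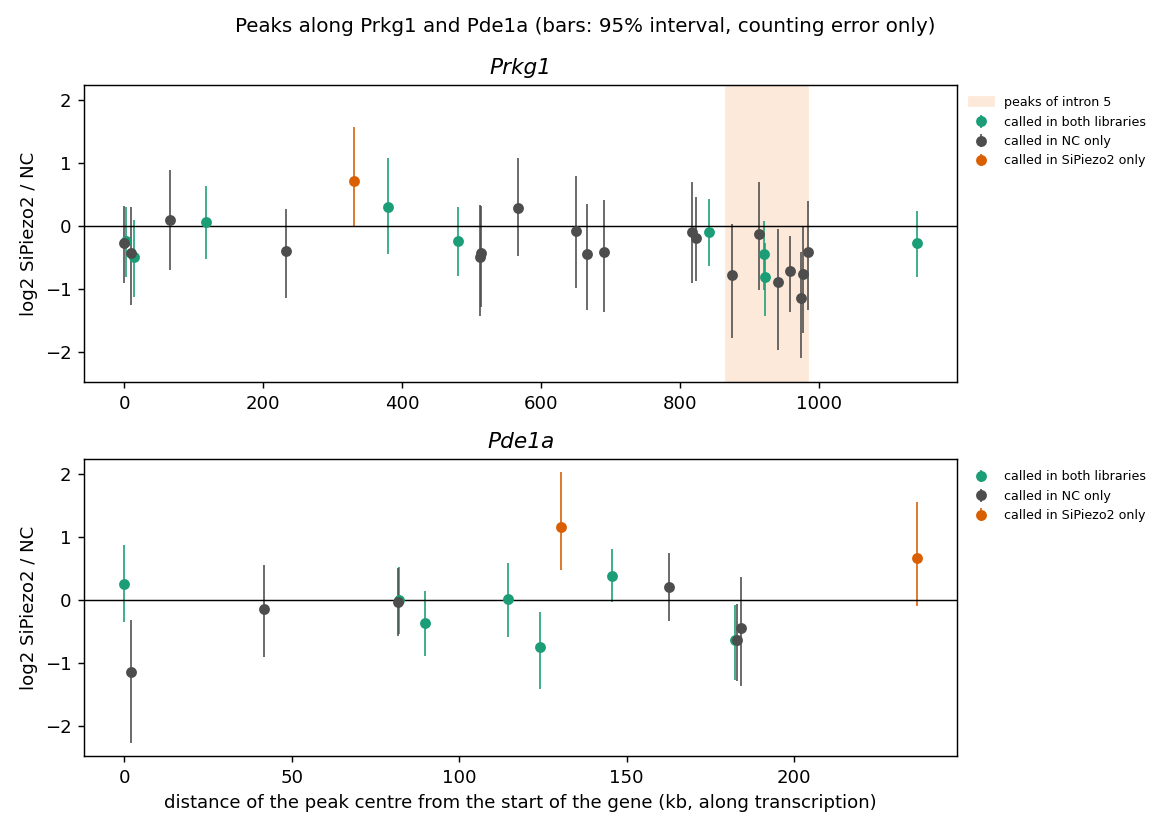
Log2 ratio of SiPiezo2 to NC for each peak of Prkg1 (top) and Pde1a (bottom) against the distance of its centre from the start of the gene in kb, coloured by the library in which it was called. Bars are 95% intervals for counting error, and the shaded stretch holds the 8 peaks of Prkg1 intron 5, all below 0; in Pde1a peaks lie on both sides of 0.

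Pde5a, the cGMP-specific phosphodiesterase that sildenafil inhibits, was lower at all 4 of its peaks. It lies on chr3:122522596-122653023 (plus strand), and 3 of its peaks sit at annotated starts. The first, chr3:122522431-122522631, had 24.1 in NC and 21.7 in SiPiezo2 (-0.15, -0.80 to 0.48). The strongest, chr3:122523262-122523462, had 34.4 and 26.5 (-0.36, -0.95 to 0.17). The third, chr3:122523547-122523858, had 28.7 and 17.4 (-0.69, -1.41 to -0.06) and was lower past 1.5-fold. The windows of these 3 peaks overlap, so they share reads and are not separate measurements. In intron 11 the density was 20.4 and 14.1 (-0.51, -1.33 to 0.21).

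The sum for Pde5a was 108 in NC and 79.7 in SiPiezo2 (-0.43, -0.75 to -0.12), an interval that treats shared reads as separate. Over the 2 peaks with separate windows the sum was 44.5 and 35.8 (-0.31, -0.81 to 0.16), and this interval held 0. Upstream of the gene, 3 intergenic peaks had Pde5a as the nearest start. At 23.5 kb the density was 21.0 in NC and 11.7 in SiPiezo2 (-0.80, -1.70 to -0.06), and at 24.6 kb it was 33.0 and 24.6 (-0.41, -1.02 to 0.14). The farthest, at 43.9 kb, had 17.4 and 17.7 (0.02, -0.72 to 0.75).

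Pde1a, a phosphodiesterase stimulated by calcium and calmodulin that degrades cGMP, showed differences of both signs that nearly cancelled. It spans chr2:79664797-79959283 (minus strand), and its 15 peaks had densities from 10.7 to 43.8 in NC (median 28.7) and from 7.99 to 57.4 in SiPiezo2 (median 25.2). The summed density was 406 in NC and 384 in SiPiezo2 (-0.08, -0.23 to 0.07; over 12 peaks with separate windows, 0.02, -0.15 to 0.18), and 431 of the 605 genes with at least 10 peaks were lower. Of its peaks, 4 were lower past 1.5-fold and 2 higher.

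The lowest Pde1a peak lay 2.1 kb inside the gene, at chr2:79957028-79957347, with 18.8 in NC and 7.99 in SiPiezo2 (-1.14, -2.26 to -0.31). The promoter peak beside it, chr2:79959297-79959609, had 22.7 and 27.3 (0.26, -0.34 to 0.87). These neighbours thus stood on opposite sides of 0, although the interval of the promoter peak held it. Farther inside intron 1, chr2:79834906-79835360 had 35.6 and 20.8 (-0.75, -1.40 to -0.18). The remaining lower peaks, chr2:79776293-79776493 with 33.6 and 21.4 (-0.63, -1.27 to -0.06) and chr2:79776644-79776995 with 34.7 and 22.0 (-0.63, -1.27 to -0.07), share most of their reads.

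The highest ratio of any member peak was also in intron 1 of Pde1a. At chr2:79828851-79829101 density was 10.7 in NC and 25.2 in SiPiezo2, from 24 and 42 reads (1.16, 0.48 to 2.02), and this was the 1 member peak with a counting interval above 0. The next peak of the gene is the lower one at chr2:79834906-79835360. The other higher peak, chr2:79722316-79722516 in intron 6, had 10.8 and 17.9 (0.67, -0.10 to 1.56). Both were called in SiPiezo2 only. The strongest Pde1a peak, chr2:79813505-79814027, was called in both libraries with 43.8 and 57.4 (0.38, -0.03 to 0.81).

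Beyond the start of Pde1a, 2 intergenic peaks had it as the nearest start. At 15.3 kb the density was 15.9 in NC and 15.7 in SiPiezo2 (-0.01, -0.80 to 0.76), and at 46.7 kb it was 18.2 and 10.4 (-0.76, -1.72 to 0.03). Over all members, 9 intergenic peaks had a member as the nearest start, of which 7 were below 0, 2 lower past 1.5-fold and 0 higher, beside 66.3%, 16.6% and 4.02% of all distal intergenic peaks.

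Pde1c, a relative of Pde1a with the same calcium dependence, had 5 weak peaks and no peak at a start site. On chr6:56046789-56629472 (minus strand), its strongest peak by NC density was in intron 1 at chr6:56594062-56594362, with 21.9 in NC and 10.5 in SiPiezo2 (-1.002, -1.96 to -0.25), and this one was lower past 1.5-fold. The strongest by the mean of both libraries, chr6:56153498-56153698, had 18.0 and 14.6 (-0.28, -1.09 to 0.46). The peak nearest to an annotated start, 8987 bp away at chr6:56108880-56109080, had 11.3 and 14.9 (0.37, -0.46 to 1.26). The sum was 83.1 in NC and 69.6 in SiPiezo2 (-0.25, -0.60 to 0.09).

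Pde2a, a phosphodiesterase that cGMP itself stimulates, had 1 peak, in the 5′ untranslated region at the start of the gene (chr7:101099727-101162024, plus strand). At chr7:101099593-101099867 density was 28.4 in NC and 30.8 in SiPiezo2 (0.11, -0.44 to 0.66), a difference within counting error. Inside the gene, 2 further peaks carried the symbol Gm45837 of an overlapping gene. They had 43.6 and 35.3 (-0.29, -0.80 to 0.18), and 22.3 and 26.0 (0.21, -0.40 to 0.83). With these peaks added, the ratio of Pde2a was -0.03.

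The order of the summed ratios ran from Npr3 (-0.57) through Pde5a (-0.43), Prkg1 (-0.33), Gucy1b1 (-0.28), Pde1c (-0.25) and Pde1a (-0.08) to Pde2a (0.11) and Gucy1a1 (0.17). The counting intervals of each pair of neighbours in this order overlapped. The order depended on the assignment of peaks. With intergenic peaks of the nearest start added, Npr3 (-0.27) came after Pde5a (-0.42), Prkg1 (-0.33) and Gucy1b1 (-0.28). By role, the phosphodiesterases together had 625 in NC and 564 in SiPiezo2 (-0.15, -0.27 to -0.03), and the cyclase subunits 116 and 111 (-0.07, -0.35 to 0.21). Peaks within 1 kb of a start of their own gene, 10 in all, had a summed ratio of -0.24 (-0.43 to -0.06), and the 51 others -0.23 (-0.32 to -0.15). Widened, the interval of the phosphodiesterases (-0.32 to 0.02) and that of the 10 peaks (-0.51 to 0.02) held 0. Over peaks with separate windows the ratio was -0.05 (-0.19 to 0.08) for the phosphodiesterases and -0.11 (-0.33 to 0.11) for 7 of the 10 peaks, and both intervals held 0. In the promoter class of the annotation, 6 member peaks had a median of -0.21, beside -0.03 for all promoter peaks. The 52 intron peaks of the members had a median of -0.27, beside -0.17 for all intron peaks, and the 24 outside Prkg1 had -0.17.

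How these values read depended on the scaling between libraries. Under the trimmed mean the median of all genes moved from -0.09 to 0.05, and Pde1a moved to 0.06, so its sign depended on the scaling. As a difference from the median of all genes, the log2 ratio of Npr3 lay between -0.47 and -0.41 over 5 scalings, that of Pde5a between -0.34 and -0.28, that of Prkg1 between -0.24 and -0.16 and that of Gucy1b1 between -0.22 and -0.18. The difference was 0.27 to 0.40 for Gucy1a1 and 0.20 to 0.21 for Pde2a. Pde1c ranged from -0.16 to 0.01, where it changed sign with the reads at the same total.

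**Figure D4:**
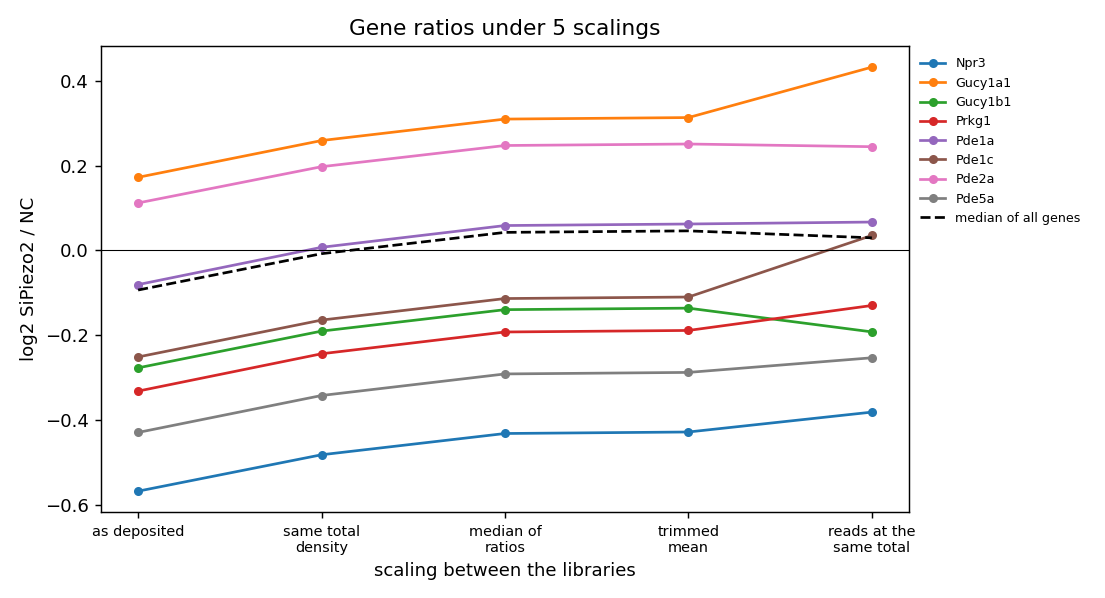
Log2 ratio of SiPiezo2 to NC of each gene under 5 ways of scaling the libraries, with the median of all genes as a dashed line. Npr3, Pde5a, Prkg1 and Gucy1b1 stay below that line and Gucy1a1 and Pde2a above it under each, while Pde1a follows it and Pde1c meets it with reads at the same total.

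Other genes of natriuretic peptide and cGMP signalling were taken from a list of 38, of which 33 had a peak. Their median ratio was -0.14, beside -0.26 for the members and -0.09 for all genes. Of the 33, 28 were below 0, where 62.6% of all genes were, and with the trimmed mean 17 were, where 43.4% of all genes were. The counting interval was below 0 for 8 and above 0 for 1, beside the 15.8% and 4.68% of all genes. A single gene passed 1.5-fold, Gucy1a2, which encodes an alternative α subunit of soluble guanylate cyclase. Its 3 peaks summed to 83.4 in NC and 54.2 in SiPiezo2 (-0.61, -1.003 to -0.25), and it was lower. In the annotation that the table itself carries for the cGMP-PKG signaling pathway, which holds 5 of the 8 members with a peak, the other 127 genes had a median of -0.08.

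Of the peptide ligands, Nppb, which encodes B-type natriuretic peptide, had 1 peak with 20.3 in NC and 28.4 in SiPiezo2 (0.47, -0.13 to 1.10). Nppa and Nppc, for the atrial and C-type peptides, had none. The 1 gene with an interval above 0 was Rgs2, a regulator of G protein signalling that the kinase activates, with 29.6 and 43.2 (0.53, 0.05 to 1.04). All 14 other phosphodiesterases with a peak were below 0, with a median of -0.17, but 8 of them with the trimmed mean, and 0 passed 1.5-fold. With reads at the same total the median of the 33 genes was 0.01, next to 0.03 for all genes.

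**Figure D5:**
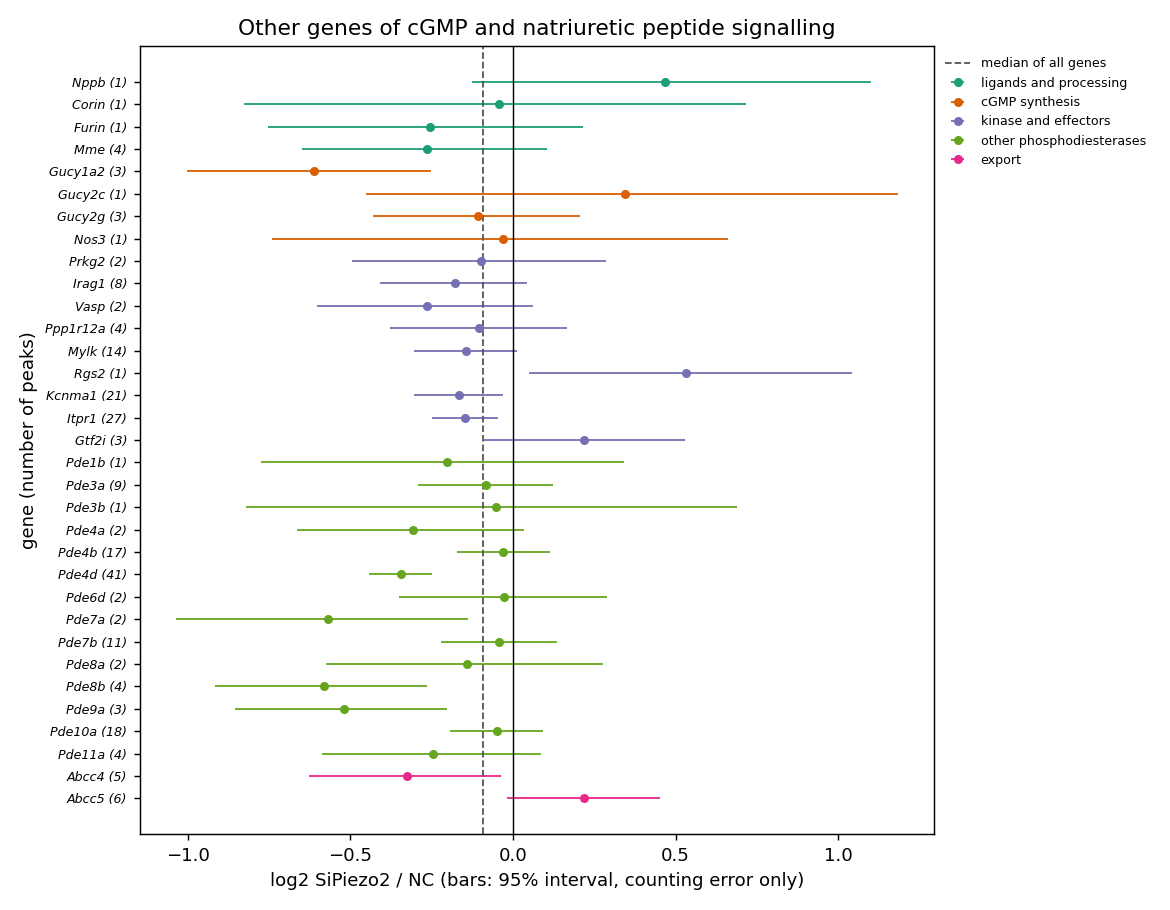
Log2 ratio of SiPiezo2 to NC for the summed density of 33 other genes of the pathway, coloured by role, with 95% intervals for counting error and the number of peaks in parentheses. The dashed line is the median of all genes (-0.09); Gucy1a2 is lowest at -0.61 and Rgs2 highest at 0.53.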

How the data were processed

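ATAC-seq libraries of NC and SiPiezo2 cells (1 each, grouped by their labels) were available as 1 peak table. Per the submitters' processing notes, reads were aligned with BWA 0.7.12 to mm10. Gene coordinates in the table are those of GRCm39 and are printed as deposited. The signal columns hold read densities that the authors normalized by an MA-plot line through the peaks shared by both libraries, as the table's columns and the recovered reads show. The authors' deposited mean log2 density was used to recover reads, which came out whole within 0.05 of a read at 100% of peaks, after 1 read per window was taken off, on the assumption, not stated in the sources used here, that the normalization had added it. The columns with the authors' log2 ratios and p-values, their own comparison, were not used.

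Densities were summed per gene symbol, and log2 ratios were taken with a pseudocount of 1. Extra variance was the median squared deviation of the ratios of peaks called in both libraries over that of counting error. Peaks named were, for each member, that nearest to a TSS, the strongest, and those past 1.5-fold. Other pathway genes named were those past 1.5-fold, and the peptide genes; Rgs2 and the peaks of other symbols or of none near the members were added after their values were seen. The members and gene lists were chosen with earlier results of these data known. The recovery was tested on simulated data. Promoters came from RefSeq for GRCm38.p6, and all 10 members matched. Alternatives covered scaling, pseudocount, peak strength, calling, windows, gene assignment and the fold threshold. The scripts ran in Python 3.11.15 with pandas 2.3.3, numpy 2.4.6, matplotlib 3.10.9 and scipy 1.17.1.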

Additional observations from a re-analysis of the deposited data

How the results depend on the processing

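The ratio of the member genes together stayed below 0 under all 14 alternatives, from -0.30 to -0.05. It moved outside its counting interval with densities at the same total (-0.148), median-of-ratios scaling (-0.0965), the trimmed mean (-0.0929), recovered reads at the same total (-0.0511) and the strongest peak of each gene (-0.126). The median of the members ranged from -0.36 to -0.05 and that of the other pathway genes from -0.14 to 0.01, within the medians of their counting bounds. Prkg1 stayed below 0 in 13 alternatives (-0.36 to -0.13) but left its counting interval with median-of-ratios (-0.19), trimmed mean (-0.19), recovered reads (-0.13) and without intron 5 (-0.18). Npr3 stayed below 0 in 10, from -0.63 to -0.27, the latter with intergenic peaks added. Pde1a was above 0 in 7 of 12 (up to 0.38, at its strongest peak). Pde2a was above 0 in 9 of 10, and -0.03 with all peaks inside the gene, and Pde1c was above 0 in 1 of 9. No member with a counting interval off 0 changed sign. The number of member peaks lower past the threshold, 13 of 61, was 8 with median-of-ratios scaling (8.35% of all peaks), 8 with the trimmed mean (8.23%), 6 with recovered reads (7.42%), 6 of 24 denser peaks, of at least the median mean density (11.5%), 3 of 17 called in both libraries (5.36%), 3 at 2-fold (2.76%) and 7 of 32 without Prkg1 (13.5%). The number higher, 3, was 5 with recovered reads (7.998%), 0 of the 24 (2.91%), 0 of the 17 (4.41%), 1 at 2-fold (0.504%) and 1 of 46 without Pde1a (3.21%). The cause was not tested for the scalings, while the other settings use fewer peaks or a stricter threshold. Leaving out genes, adding intergenic peaks and leaving out intron 5 were chosen after seeing the data. No paired analysis was possible because each condition had 1 library. With a median of 50 and 30 reads a peak, the interval of most single member peaks held 0.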
